A study of Drosophila melanogaster with 6 samples.

Results

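Peroxiredoxins and antioxidant enzymes were examined through 10 genes chosen by name: the peroxiredoxins *Prx2* (also called *Jafrac1*), *Prx3* and *Prx5*, the superoxide dismutases *Sod1* and *Sod2*, the catalase gene *Cat*, the thioredoxin gene *Trx-2*, the thioredoxin reductase gene *Trxr1*, the transcription factor gene *cnc* and its inhibitor *Keap1*. All 10 were matched among the 17478 genes of the count table, 9 had reads and all of these 9 passed the filter on low counts. Polyadenylated RNA of wing imaginal discs, the larval tissue that forms the adult wing and notum, was sequenced from female larvae of the third instar, with 150 discs pooled per sample and single reads of 50 bp. The 3 *CycGΔP* samples carried *UAS-CycGΔP* and *da-Gal4*, with genotype *UAS-CycGΔP, da-Gal4/+*, and the 3 control samples carried the driver alone, *da-Gal4/+*. *da-Gal4* produces the yeast activator Gal4 throughout the animal, and the Gal4-responsive transgene encodes Cyclin G without its PEST domain, so both groups contained Gal4 and the whole larva, not only the disc, expressed the transgene. According to the study's methods, the replicates came from independent crosses. The comparison asked which transcripts differ when this form of Cyclin G, a tool for the study of fluctuating asymmetry of the wing, is expressed.

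Superoxide and hydrogen peroxide arise as by-products of respiration and as products of dedicated oxidases. Superoxide dismutases convert superoxide to hydrogen peroxide, which catalase breaks down in peroxisomes and which peroxiredoxins reduce with electrons passed from NADPH through thioredoxin reductase and thioredoxin. Flies lack glutathione reductase, and thioredoxin reductase also keeps their glutathione reduced. Under oxidative or electrophilic stress, the CncC isoform of *cnc* escapes Keap1, which otherwise holds it for degradation, and activates genes of antioxidant defence.

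Libraries held from 21853360 to 40059450 counts. Expression is given as CPM, the counts of a gene scaled to a common library size after TMM normalization, and values of single libraries stand in the order of replicates 1, 2 and 3. The targeted gene *CycG* had 1022, 1012 and 900 CPM in *CycGΔP* discs against 723, 788 and 686 CPM in control discs. Every *CycGΔP* library lay above every control library, as for 9.98% of tested genes. The log2 fold change was 0.42, with an adjusted p-value of 0.0909 in edgeR, the main test below, and of 0.00053 in DESeq2. These counts do not separate the transgene from the endogenous gene, which the paper found lower by RT-qPCR. All 7 wing disc markers that could be matched (*vg*, *nub*, *rn*, *sd*, *ap*, *dpp*, *hh*) were expressed, with a summed level of 1630 to 1762 CPM in *CycGΔP* and 1495 to 1743 CPM in control libraries. Markers of other tissues were not constant. Those of the fat body summed to 4332 to 7057 CPM in *CycGΔP* libraries and to 17940, 1810 and 584 CPM in the controls, with all 6 genes detected. Those of muscle summed to 44.1 to 58.3 CPM against 100 to 235 CPM, and each of the 5 genes was lower in *CycGΔP* without overlap. The *roX* RNAs, which males make, summed to 2.9 to 4.85 CPM against 14.2 to 49 CPM although the larvae were labelled female. Of these, *roX1* was found in every library, and *roX2* was at 0 in the *CycGΔP* libraries and at 1.5, 1.6 and 0.279 CPM in the controls. Haemocyte markers summed to 23.9 to 143 CPM against 37.9 to 75.8 CPM, tracheal markers to 993 to 1205 CPM against 995 to 1073 CPM, adult muscle precursor markers to 156 to 164 CPM against 140 to 171 CPM, and male accessory gland genes to 7.01 to 20.3 CPM against 0.368 to 2.97 CPM, with *Acp70A* of these 5 genes at 0. Of the accessory gland genes, *Acp26Aa* and *Acp26Ab* were at 0 in every control library. They had 3.77, 4.8 and 4.43 CPM and 2.1, 3.09 and 3.28 CPM in *CycGΔP* libraries (edgeR adjusted p-values 0.00777 and 0.0164). *Acp36DE* overlapped between groups, and *Acp62F* had at most 4 counts in any library. The part of these tissues in the values below was not tested. In bulk RNA, fewer cells of a type and less RNA per cell cannot be told apart.

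The enzymes were abundant in the disc, and their regulators much less so. Levels of different genes were compared per exon length, as CPM per kb of annotated exon. In control discs *Sod1*, the copper-zinc dismutase of the cytosol, was the most abundant at 372 ± 13.2 CPM per kb (SD, n = 3), followed by *Prx2*, the main cytosolic peroxiredoxin, at 317 ± 7.03 CPM per kb (SD, n = 3). *Trx-2* and *Cat* both reached 187 CPM per kb and their libraries overlapped. *Trxr1* had 153, *Sod2* 118 and *Prx3* 88 CPM per kb. Sod2 and Prx3 work in mitochondria, and their transcripts were the least abundant of the enzymes counted here. *cnc* had 15.3 and *Keap1* 6.18 CPM per kb. Except for *Trx-2* and *Cat*, no neighbours in this order overlapped between control libraries. Of the *Trxr1* exon length, 13.8% lies opposite to the gene *sni*, and reads from such stretches were hardly counted, as described below. The value of *Trxr1* per kb is therefore understated, and its order relative to *Trx-2* and *Cat* is uncertain. In *CycGΔP* discs *Sod1* (274 CPM per kb) and *Prx2* (268 CPM per kb) were still the first and second, but their libraries now overlapped, from 252 to 297 and from 260 to 285 CPM per kb. *Cat*, at 210 CPM per kb, lay above *Trx-2*, at 174 CPM per kb, without overlap. For *cnc*, with 16 annotated transcripts over 9178 exon bases, the length is that of all isoforms together, so its value per kb understates any single short isoform.

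**Figure D1:**
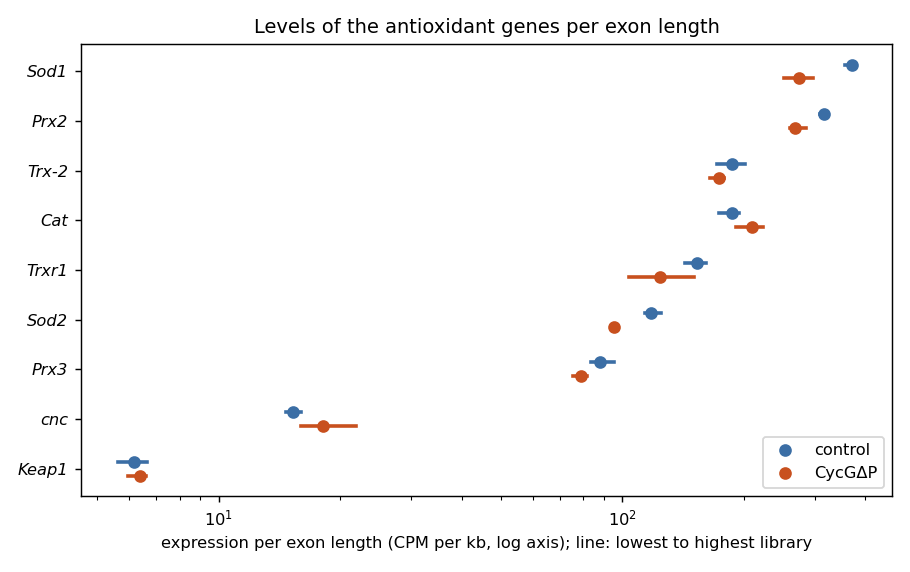
Expression of the 9 counted genes in CPM per kb of exon, on a log axis, in control (blue) and CycGΔP (orange) discs. Points are means of 3 libraries and lines run from the lowest to the highest library. *Sod1* and *Prx2* stand highest in both groups (372 and 317 CPM per kb in controls), and *Keap1* is lowest.

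None of the 9 counted genes passed edgeR's quasi-likelihood test at a Benjamini-Hochberg adjusted p-value under 0.05, where 1.42% of the 9408 tested genes passed (0.733% lower and 0.691% higher in *CycGΔP* discs). At an unadjusted edgeR p-value under 0.05 there were 3 of the 9, all lower, against 8.07% of tested genes on that side. DESeq2 without a prior on fold changes called the same 3 genes, *Sod1*, *Sod2* and *Prx2*, lower at an adjusted p-value under 0.05, as it did 3.07% of its genes. DESeq2, in an earlier version, is the test that the authors used. *CycGΔP* libraries lay wholly below controls for 4 of the 9 genes (12.1% of tested genes) and wholly above for 1 (9.98%). The median log2 fold change of the 9 was −0.16, and over all tested genes it was 0.012. The genes were chosen with results of these data known, so these counts describe them and are no test of the group.

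**Figure D2:**
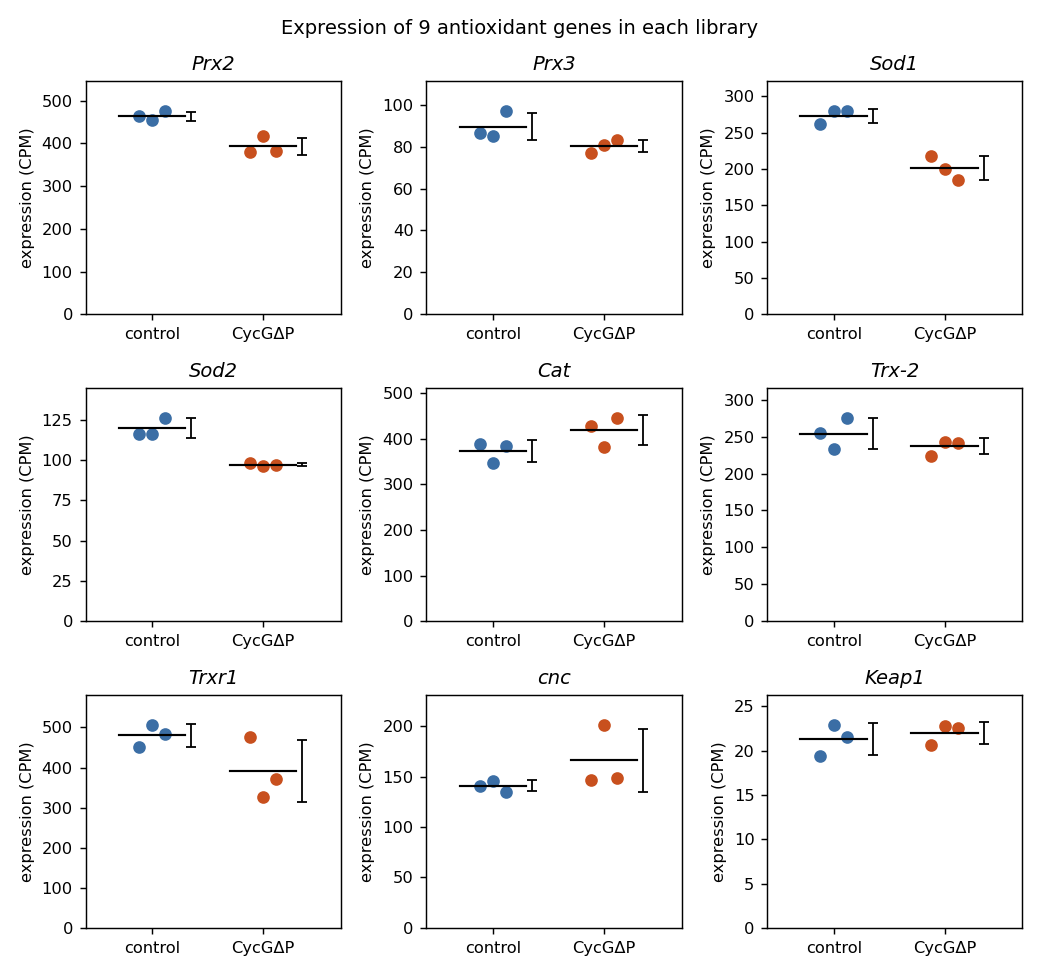
Expression in CPM (y axes from 0) of each counted gene in the 3 control (blue) and 3 CycGΔP (orange) libraries, shown from left to right as replicates 1, 2 and 3. Horizontal lines are group means and bars at their right are ± 1 SD. Control and CycGΔP libraries separate for *Prx2*, *Prx3*, *Sod1* and *Sod2*, with CycGΔP lower, and for *cnc*, with CycGΔP higher by a small margin.

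Among the enzymes that remove superoxide, *Sod1* (FBgn0003462, minus strand of 3L, from 11112281 to 11113740 of dm6) had 218, 200 and 185 CPM in *CycGΔP* libraries and 262, 279 and 279 CPM in controls. The highest *CycGΔP* library was therefore below the lowest control. The means were 201 ± 16.5 and 273 ± 9.71 CPM (SD, n = 3 each), a fold of 0.737 with a 95% interval from 0.643 to 0.844. Its log2 fold change of −0.44 (± 0.0821 SE) had an unadjusted edgeR p-value of 0.00125, rank 173 of the tested genes, and an edgeR adjusted p-value of 0.0678, just above the threshold. DESeq2 gave an adjusted p-value of 5.53e-05. Without control replicate 1, which held the most fat body and *roX* RNA, the log2 fold change was −0.49 (edgeR adjusted p-value 0.09). The *roX* and muscle sums of the remaining controls still lay above those of every *CycGΔP* library. The part of other tissues in the *Sod1* difference was not tested. The gene has 1 annotated transcript and no exon base in common with another gene.

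*Sod2* (FBgn0010213, minus strand of 2R, from 16772785 to 16773915), the manganese dismutase of the mitochondrial matrix, had 98.2, 96.2 and 96.8 CPM in *CycGΔP* libraries and 116, 116 and 126 CPM in controls. The *CycGΔP* libraries were nearly identical, and all lay below the controls. The means were 97.1 ± 1.04 and 120 ± 5.97 CPM (SD, n = 3 each), with a log2 fold change of −0.30 (± 0.0661 SE), an edgeR adjusted p-value of 0.102 and a DESeq2 adjusted p-value of 0.00136. Relative to *Sod2* in the same library, *Sod1* counts were 2.22, 2.08 and 1.92 times as high in *CycGΔP* discs and 2.25, 2.40 and 2.20 times as high in control discs. The ratios of the 2 dismutase genes overlapped between groups, so a larger difference in the cytosolic than in the mitochondrial dismutase was not detectable here (difference −0.14 on the log2 scale, exact two-sided permutation p = 0.2).

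The transcript of catalase, which breaks down hydrogen peroxide, had a fold change of opposite sign to the dismutases and did not pass the test. *Cat* (FBgn0000261, plus strand of 3L, from 18822604 to 18828188) had 428, 383 and 445 CPM in *CycGΔP* libraries and 389, 346 and 384 CPM in controls. The groups overlapped, since *CycGΔP* replicate 2 lay within the control range. The log2 fold change was 0.17 (± 0.0885 SE, edgeR adjusted p-value 0.437), with a 95% interval of the fold from 0.969 to 1.3. Without control replicate 2 the log2 fold change was 0.10.

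The balance of catalase to superoxide dismutase was therefore read within each library, where no scaling between libraries enters. *Cat* counts were 1.96, 1.92 and 2.40 times those of *Sod1* in *CycGΔP* libraries, compared with 1.48, 1.24 and 1.38 times in controls. Every *CycGΔP* library exceeded every control, and the geometric mean ratio was 1.53 times as high. The exact two-sided permutation p of 0.1 is the smallest that 3 samples against 3 can give, and the p adjusted over the 6 ratios computed was 0.30. Of these 6 ratios, *Cat/Sod1* and *Prx2/Trx-2* did not overlap between groups, whereas 21.6% of the ratios over all pairs of tested genes with counts in every library did not overlap. Such a ratio shows unequal differences of 2 genes and not which of them is constant.

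**Figure D3:**
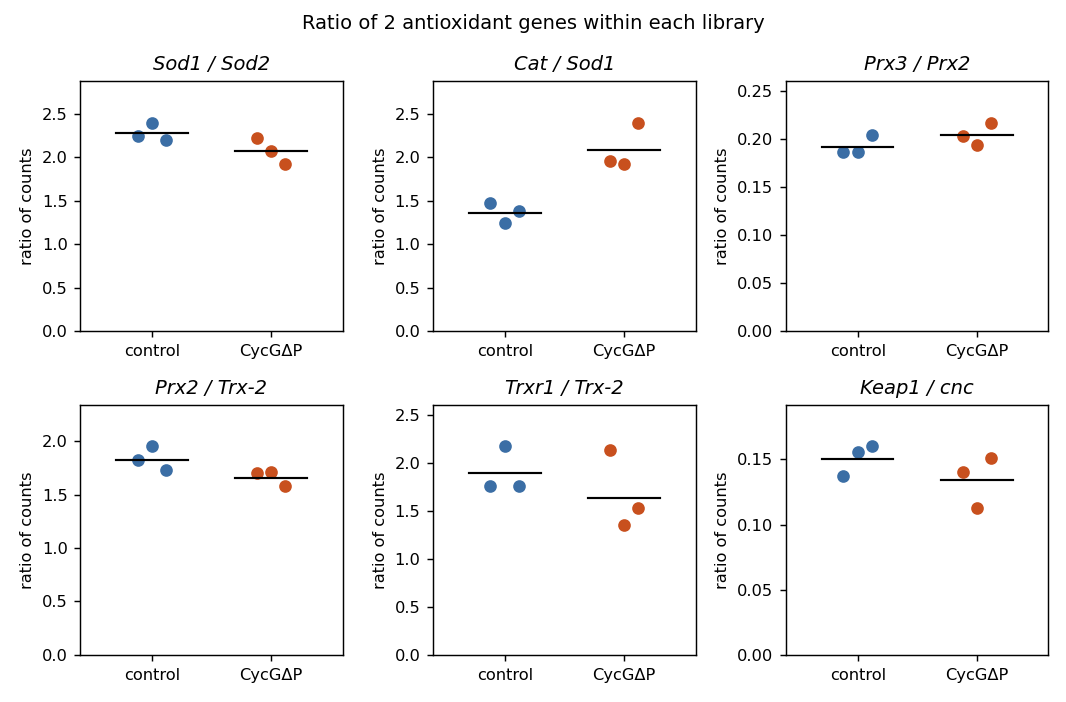
Ratio of the counts of 2 antioxidant genes within each library (y axes from 0) for the 6 pairs compared, with control libraries in blue and CycGΔP in orange, and lines at the geometric means. *Cat* relative to *Sod1* is above 1.9 in each CycGΔP library and below 1.5 in each control library, while *Sod1* relative to *Sod2* overlaps between groups.

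Peroxiredoxins reduce hydrogen peroxide and organic peroxides with thiols. *Prx2* (FBgn0040309, plus strand of X, from 13329824 to 13331994) had 380, 417 and 383 CPM in *CycGΔP* libraries and 464, 454 and 475 CPM in controls. All *CycGΔP* libraries were lower than all controls, with a fold of 0.847 and a 95% interval from 0.754 to 0.951. The unadjusted edgeR p-value was 0.0122, and the adjusted p-value was 0.186 in edgeR and 0.00136 in DESeq2. The paper, which used DESeq2, names this gene, as *Jafrac1*, among metabolic genes that were down-regulated with *CycGΔP*. *Prx3* (FBgn0038519, minus strand of 3R, from 17545222 to 17546531), which encodes the mitochondrial peroxiredoxin, had 77, 80.8 and 83.1 CPM in *CycGΔP* libraries and 86.7, 85 and 96.8 CPM in controls. The groups were separated only narrowly, by 83.1 against 85 CPM, and the log2 fold change of −0.16 (± 0.0776 SE) gave an edgeR adjusted p-value of 0.408. It was −0.098 without control replicate 3 and −0.071 with scaling to *Lam* and *rin*. The counts of *Prx3* relative to *Prx2* were 0.203, 0.194 and 0.217 in *CycGΔP* libraries and 0.187, 0.187 and 0.204 in controls. These ratios overlapped, so the data do not separate the mitochondrial from the cytosolic peroxiredoxin (difference 0.087 on the log2 scale, exact two-sided permutation p = 0.3).

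*Prx5* (FBgn0038570, minus strand of 3R, from 18165442 to 18167273), a peroxiredoxin found in mitochondria and other compartments, had 0 counts in all 6 libraries and could not be tested. For a gene whose reads are counted, 0 allows up to 3 counts in a library, a limit that does not apply to *Prx5*. All of its 1449 exon bases belong in the annotation to *CG7215* as well, a gene with the same span and strand, and *CG7215* also had 0 counts in every library. The authors assigned only reads that fell unambiguously on one gene. Of 287 protein-coding genes whose exons were wholly shared with another counted gene on the same strand, 283 (98.6%) had 0 counts in all libraries, compared with 12.4% of the 9328 protein-coding genes that shared no exon base on either strand. The 0 of *Prx5* is therefore no measurement of its expression. Of 65 protein-coding genes whose exons lay wholly opposite to another counted gene, and shared none on their own strand, 64 (98.5%) were also at 0. Reads from regions annotated on both strands were thus hardly counted, although the library kit marks the strand.

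Thioredoxin carries electrons to the peroxiredoxins, and thioredoxin reductase recharges it with NADPH. *Trx-2* (FBgn0040070, plus strand of 2L, from 9613166 to 9616404) encodes a thioredoxin expressed outside the germline, and other thioredoxin genes also had reads here. *Trx-2* had 224, 243 and 242 CPM in *CycGΔP* libraries and 255, 233 and 275 CPM in controls. The groups overlapped, with a log2 fold change of −0.10 (± 0.0849 SE, edgeR adjusted p-value 0.584) and a 95% interval of the fold from 0.808 to 1.07. It was −0.18 without control replicate 2, −0.048 without control replicate 3 and −0.023 with scaling to *Lam* and *rin*. Relative to *Trx-2*, *Prx2* counts were 1.7, 1.71 and 1.58 in *CycGΔP* libraries, compared with 1.82, 1.95 and 1.73 in controls. The highest *CycGΔP* ratio lay just under the lowest control ratio, and the difference was −0.14 on the log2 scale (exact two-sided permutation p = 0.1, adjusted over the 6 ratios 0.30).

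*Trxr1* (FBgn0020653, plus strand of X, from 8242528 to 8248033) had 477, 327 and 371 CPM in *CycGΔP* libraries and 451, 506 and 483 CPM in controls. *CycGΔP* replicate 1 lay within the control range and the other 2 *CycGΔP* libraries lay well below it. The log2 fold change was −0.29 (± 0.144 SE, edgeR adjusted p-value 0.403). Without *CycGΔP* replicate 1 it was −0.46 (edgeR adjusted p-value 0.12), and without *CycGΔP* replicate 2 it was −0.18 (0.649). Relative to *Trx-2*, *Trxr1* counts were 2.13, 1.35 and 1.53 in *CycGΔP* and 1.76, 2.17 and 1.76 in control libraries, with overlap (exact two-sided permutation p = 0.4). *Trxr1* gives rise to cytosolic and mitochondrial forms of the enzyme, which counts per gene do not separate. Its exons lie over 435 bases, 13.8% of their length, opposite to those of *sni*, a stretch of the kind in which reads were hardly counted.

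The regulators showed no shift that passed the test. *cnc* (FBgn0262975, minus strand of 3R, from 23185580 to 23226711) had 147, 201 and 149 CPM in *CycGΔP* libraries and 141, 146 and 135 CPM in controls. The groups did not overlap, but 2 of the *CycGΔP* libraries exceeded the highest control only slightly and replicate 2 carried the difference. The log2 fold change was 0.24 (± 0.133 SE, edgeR adjusted p-value 0.458), and 0.072 without *CycGΔP* replicate 2 (0.776). The counts do not distinguish the CncC isoform, which acts in the stress response, from the isoforms that act in patterning. *Keap1* (FBgn0038475, minus strand of 3R, from 17073942 to 17079945) had 20.6, 22.8 and 22.6 CPM in *CycGΔP* libraries and 19.4, 22.9 and 21.6 CPM in controls. Its groups overlapped entirely, with a log2 fold change of 0.046 and a 95% interval of the fold from 0.89 to 1.2. The ratio of *Keap1* to *cnc* counts was 0.140, 0.113 and 0.151 in *CycGΔP* libraries and 0.137, 0.156 and 0.160 in controls, again with overlap (exact two-sided permutation p = 0.3).

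The CPM of the 7 counted enzyme genes summed to 1902, 1747 and 1806 in *CycGΔP* libraries, compared with 2024, 2019 and 2118 in controls. Every *CycGΔP* sum was thus below every control sum, although *Cat* contributed on the other side. The sum restates the values of the single genes above, was not tested and is no separate result. The spread between replicates differed among the genes. The coefficient of variation was 19.6% in *CycGΔP* against 5.76% in control libraries for *Trxr1* and 18.6% against 4.09% for *cnc*, but 1.07% against 4.99% for *Sod2*. The SD of log2(CPM + 0.5) was larger in *CycGΔP* libraries for 5 of the 9 genes and for 55.3% of all tested genes. Each library pools 150 discs, so this spread is between pools and not between individual discs.

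The profiles were compared with those of all tested genes by the root mean square difference of log2 CPM, centred on the control mean, over the 6 samples. For *Sod1* the closest genes were *Poc1* (0.0344) and *ND-B18* (0.0394), which encodes a subunit of respiratory complex I. Their log2 fold changes were −0.44 and −0.42. The measure selects genes with fold changes near that of *Sod1*, so this likeness is no separate result. For *Prx2* they were *nom* (0.0249), a gene without a symbol (FBgn0053139, 0.0292) and *scramb2* (0.0333). For *cnc* they were *baz* (0.0311), which encodes a cell polarity protein, a gene without a symbol (FBgn0041203, 0.0376) and *B4* (0.0386). Among the antioxidant genes themselves, *Sod2* was the nearest to *Sod1* at 0.125, rank 181 of all tested genes, and to *Prx2* at 0.0696, rank 79. *Keap1* was the nearest to *cnc* at 0.189, rank 1471. The medians over all tested genes were 0.375 for *Sod1*, 0.254 for *Prx2* and 0.298 for *cnc*.

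The wider redox system was described with 51 genes in 9 lists. Of these, 50 were matched in the table and 36 were tested, of which 1 was called lower and none higher by edgeR at an adjusted p-value under 0.05 (0.733% and 0.691% of all tested genes). At an unadjusted edgeR p-value under 0.05 there were 8 lower (8.07% of tested genes) and 2 higher (6.65% of tested genes), the higher ones being *Gclc* and *SelR*. DESeq2 called 5 lower (*dj-1beta*, *Rsod*, *Sod3*, *MsrA* and *Pgd*) and 0 higher, against 3.07% and 2.37% of its genes. The median log2 fold change of the 36 genes was −0.063. *CycGΔP* libraries lay wholly below controls for 12 of them (12.1% of tested genes) and wholly above for 2, again *Gclc* and *SelR* (9.98% of tested genes).

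The gene called was *dj-1beta* (FBgn0039802, plus strand of 3R, from 30807117 to 30807978), a fly orthologue of human DJ-1 (PARK7) that is known for protection against oxidative stress. It had 46, 43.2 and 37.3 CPM in *CycGΔP* libraries and 60.2, 68.3 and 66.6 CPM in controls, so that the groups were well separated. The transcript fell, from a control mean of 65 ± 4.25 CPM to a *CycGΔP* mean of 42.2 ± 4.47 CPM (SD, n = 3 each), with a fold of 0.648 with a 95% interval from 0.551 to 0.763. The log2 fold change of −0.63 (± 0.0983 SE) had an edgeR adjusted p-value of 0.0431. The 15 alternatives gave log2 fold changes from −0.70 to −0.54 and adjusted p-values from 1.81e-05 to 0.171, of which 7 were under 0.05. The call was lost with any 1 of the 6 libraries left out. Its paralogue *DJ-1alpha* was at 0.308 CPM in *CycGΔP* and 0.263 CPM in control discs and was not tested.

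Of the 4 other superoxide dismutase and catalase genes tested, edgeR called none and DESeq2 called 2, *Rsod* and *Sod3*, lower. *Rsod*, named for its relation to the dismutases, had 47.8, 35 and 42.8 CPM in *CycGΔP* libraries and 61.3, 66.2 and 58.3 CPM in controls (log2 fold change −0.56, edgeR adjusted p-value 0.0958, DESeq2 0.00298). The libraries were again separated, with *CycGΔP* lower. *Sod3*, the extracellular dismutase, had 226, 228 and 230 CPM in *CycGΔP* libraries and 260, 257 and 270 CPM in controls (log2 fold change −0.20, edgeR adjusted p-value 0.194, DESeq2 0.00359), and was named after its values were seen. *Ccs*, which encodes the chaperone that loads copper into Sod1, had 16.1 and 16.3 CPM in the 2 groups (log2 fold change −0.017, edgeR adjusted p-value 0.943) and was also chosen after its values were seen.

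None of the other lists held a gene that edgeR called. Among 6 tested genes for other peroxiredoxins, sulfiredoxin and sestrin the lowest p-value belonged to *Prx6a*, with 24.9 CPM in *CycGΔP* and 28.5 CPM in control discs (edgeR adjusted p-value 0.367). The 3 other thioredoxin genes tested were led by *CG8993*, at 24 against 29.8 CPM (edgeR adjusted p-value 0.152). Among 7 glutathione and methionine sulfoxide genes, *SelR*, which encodes a methionine sulfoxide reductase, had 49.2 against 41.2 CPM (edgeR adjusted p-value 0.162), and *CycGΔP* libraries were higher without overlap. *Gclc*, the catalytic subunit gene of the first enzyme of glutathione synthesis, had 27.4, 34.7 and 31.5 CPM in *CycGΔP* libraries and 26.5, 22.9 and 22.9 CPM in controls (log2 fold change 0.37, edgeR adjusted p-value 0.187). *MsrA*, another methionine sulfoxide reductase gene, had 61.7, 58.6 and 62.3 CPM in *CycGΔP* libraries and 85.9, 68.3 and 76 CPM in controls, all lower in *CycGΔP* (log2 fold change −0.33, edgeR adjusted p-value 0.181, DESeq2 0.0368). *Gclc* and *MsrA* were chosen after their values were seen.

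NADPH feeds the thioredoxin system, and edgeR called none of the 5 NADPH-producing genes tested. *Pgd*, the 6-phosphogluconate dehydrogenase gene of the pentose phosphate pathway, had 60.2, 48.4 and 53.3 CPM in *CycGΔP* libraries and 63.6, 85.7 and 72.7 CPM in controls (log2 fold change −0.46, edgeR adjusted p-value 0.185, DESeq2 0.046). The groups lay close, with 60.2 against 63.6 CPM at their nearest. Of the cnc partners and targets, 4 genes were tested and *maf-S*, the small Maf partner of CncC, came first, at 37.9 against 42.4 CPM (edgeR adjusted p-value 0.355). *GstD1*, a glutathione transferase gene widely used as a reporter of CncC activity, had 957, 972 and 970 CPM in *CycGΔP* libraries and 1092, 971 and 1124 CPM in controls. Its groups overlapped (log2 fold change −0.14, edgeR adjusted p-value 0.46), and it was chosen after its values were seen.

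For the sources of oxidants, 2 genes were tested. *mol*, which encodes a maturation factor of the dual oxidase, had 4.28 against 7.01 CPM (log2 fold change −0.71, edgeR adjusted p-value 0.215), with all *CycGΔP* libraries below the controls. The 4 iron, haem and metal genes tested were led by *Ho*, the haem oxygenase gene, at 24.2 against 19 CPM (edgeR adjusted p-value 0.47), and its groups overlapped.

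**Figure D4:**
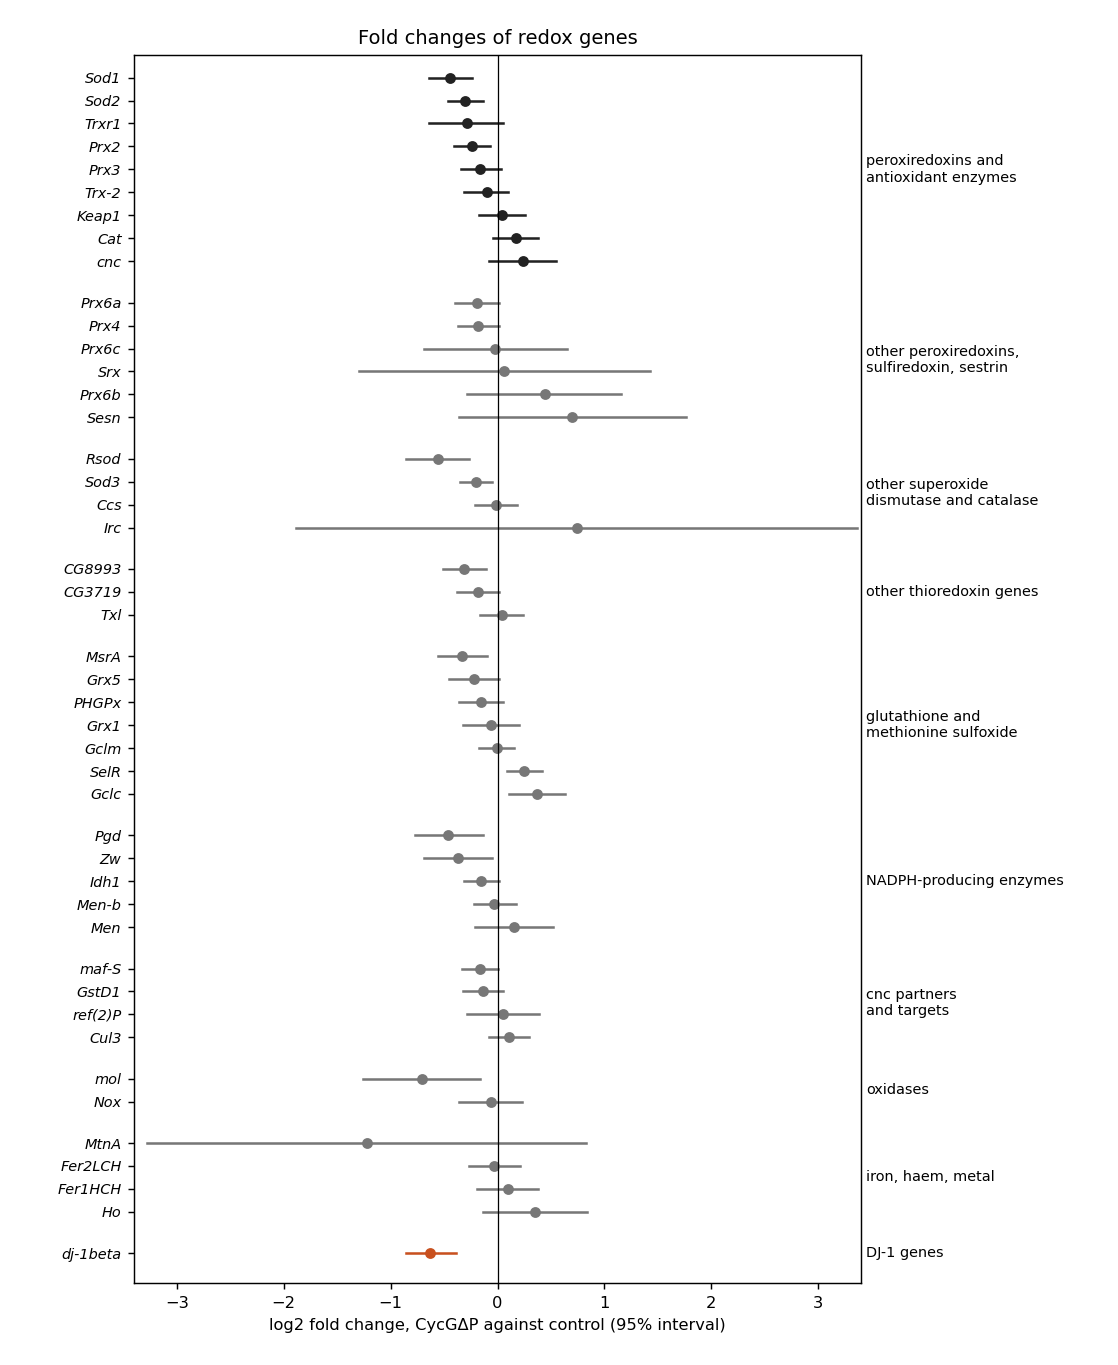
Log2 fold changes of *CycGΔP* against control (points) with 95% intervals (lines) from the edgeR fit for the 9 counted antioxidant genes (black) and 36 further redox genes (grey or orange), grouped by list. The orange gene, *dj-1beta* (−0.63), is the one with an adjusted p-value under 0.05. *Sod1* (−0.44) and *Sod2* (−0.30) stand lowest in their group, and *Cat* (0.17) and *cnc* (0.24) highest.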

How the data were processed

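Raw counts per gene were used as deposited. According to the study's methods, the authors aligned the reads to dm6 with TopHat2 2.0.10 and assigned unambiguous reads to Ensembl genes with summarizeOverlaps; use of strand is not stated. The deposited normalized counts were not used. Groups came from the sample titles. Symbols, coordinates and exon lengths came from an Ensembl annotation of dm6, which may be newer than the one counted on, and 17219 of 17478 identifiers had a symbol. *Duox*, *wg* and *btl* were not matched and are not analysed here.

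The test was that of edgeR 4.0.16 under R 4.3.3 (TMM, expression filter, robust quasi-likelihood fits, Benjamini-Hochberg adjustment over the 9408 tested genes). CPM are counts scaled by TMM library sizes. Intervals are 95% from the same fit. DESeq2 1.42.0 and limma 3.58.1 were alternatives, as were other scalings, filters, a replicate block and each library left out. The authors' own test was an earlier version of DESeq2, also at an adjusted p-value under 0.05. Ratios were tested by exact permutation over samples, and limits at 0 counts cover counting error only. Replicates differed by more than sampling noise (chi-square per gene at least 40.3), so each library counted once.

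The members and lists were chosen with earlier results of these data known. Named are all members, in each list the genes called or else the gene of lowest p-value, and the 3 genes most like *Prx2*, *Sod1* and *cnc*, of which 1 is not reported here; other genes are named as chosen after their values were seen.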

Additional observations from a re-analysis of the deposited data

How the results depend on the processing

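Of 135 values of member fold changes under an alternative, 128 kept their direction and their side of the threshold. DESeq2 passed 0.05 for *Prx2* (log2 fold change −0.26 without a prior and −0.25 with it), *Sod1* (−0.46 and −0.43) and *Sod2* (−0.32 and −0.30), which makes 3 members called lower in place of 0. *Keap1* ranged from −0.038 to 0.086 with 1 library left out and changed sign without control replicate 1 (−0.038). With 1 library left out, 0 members were called, and the log2 fold change ranged from −0.51 to −0.39 for *Sod1*, from −0.34 to −0.26 for *Sod2* and from −0.28 to −0.22 for *Prx2*. Scaling to *Lam* and *rin*, the reference genes of the study's RT-qPCR, moved the median of all genes to 0.10 and gave −0.35 for *Sod1* (edgeR adjusted p-value 0.207). With 1 library left out, the log2 differences of the ratios ranged from 0.51 to 0.67 for *Cat/Sod1*, −0.20 to −0.089 for *Sod1/Sod2*, 0.043 to 0.13 for *Prx3/Prx2*, −0.18 to −0.093 for *Prx2/Trx-2*, −0.40 to −0.066 for *Trxr1/Trx-2* and −0.26 to −0.051 for *Keap1/cnc*. The cause of these differences was not tested.

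DESeq2 with and without the prior also called 2 other superoxide dismutase and catalase genes, 1 glutathione and methionine sulfoxide gene and 1 NADPH-producing enzyme gene lower, where edgeR called 0. The 1 DJ-1 gene called lower became 0 with *Lam* and *rin* scaling, with the replicate block, at an adjusted p-value under 0.01 and in each fit with 1 library left out (from 0 to 0). Over all tested genes, 65 were called higher and 69 lower. These counts became 31 and 17 with *Lam* and *rin* scaling, 244 and 316 with DESeq2 without a prior, 227 and 300 with it, and 10 and 4 at 0.01. With 1 library left out they ranged from 8 to 50 higher and from 3 to 28 lower, fewest without *CycGΔP* replicate 3. Without TMM factors the *Sod2* level in *CycGΔP* discs was 93.7 CPM per kb.

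The replicate numbers did not pair the samples: deviations from the group means correlated at −0.097, −0.126 and −0.122 between libraries of the same number. With the replicate block 2 genes were called higher and 0 lower, and no member was called. Counting error was small, with at least 479 counts per library for each counted member, so the spread between 3 libraries sets the precision.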

Other observations

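Of the 50 wider redox genes in the table, 14 had too few counts to be tested. Among them *Trxr2*, *CG8517*, *Gss2* and *Grx1t* had 0 counts in all 6 libraries. For a gene whose reads are counted, this allows up to 3 counts in each, a limit that may not apply to *Gss2*. The germline thioredoxin genes *TrxT* and *dhd* had at most 3 and 1 counts in any library, and *Prx1* at most 1. *Gss1* and *Gss2* are near-identical neighbours, so the counting could split or leave out their reads and their levels are uncertain.

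*MtnA*, a metallothionein gene, varied within both groups, with 6.75, 1.28 and 2.16 CPM in *CycGΔP* discs against 9.78, 11.9 and 2.16 CPM in control discs, in the order of replicates 1, 2 and 3. *Sesn*, the sestrin gene, had 19.5, 7.61 and 11.9 CPM in *CycGΔP* discs against 11.7, 7.34 and 5.02 CPM in control discs, with overlap (edgeR adjusted p-value 0.499). *MtnA* and *Sesn* were chosen after their values were seen.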
